A study of Rattus norvegicus with 12 samples.

Results

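The genes described here are 37 genes of fatty acid metabolism in rat F11 cells, chosen by name: the enzymes that make, desaturate, elongate and activate fatty acids, those that burn them in mitochondria and peroxisomes, and a few binding proteins and receptors. All 37 had at least 1 probe on the array, among 35493 genes or unnamed transcripts with a probe, and 32 of them were tested after a filter on dim probes, among 17808 genes tested. F11 is a hybrid line of rat dorsal root ganglion neurons and mouse neuroblastoma cells, used as a model of sensory neurons. Its mouse transcripts can bind the rat probes. Forskolin, which activates adenylyl cyclase and so raises cAMP, was given at 10 µM for 2, 4, 24 or 48 h to cells kept in medium with 0.5% FCS from 3 h before, with 3 samples at each time. The reference on every array was RNA of F11 cells kept for 3 h in the same low-serum medium without forskolin. Forskolin RNA was always labelled with Cy3 (green) and the reference with Cy5 (red). No array held cells kept in low serum for 24 or 48 h without forskolin, so forskolin and time in low serum cannot be told apart. Each time also stood at 1 position of every slide, and position and time cannot be told apart.

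Fatty acids are built from acetyl-CoA. ATP citrate lyase (Acly) and acyl-CoA synthetase short-chain family member 2 (Acss2) supply it in the cytosol, acetyl-CoA carboxylase (Acaca, and Acacb at mitochondria) turns it into malonyl-CoA, and fatty acid synthase (Fasn) extends the chain with reducing power that malic enzyme (Me1) helps to provide. Stearoyl-CoA desaturases (Scd1, Scd2) and fatty acid desaturases (Fads1, Fads2, Fads3) add unsaturated bonds, elongases (Elovl) lengthen the chain, and long-chain acyl-CoA synthetases (Acsl) activate fatty acids for either use. For oxidation, Cpt1a and Cpt2 carry long chains into mitochondria, where acyl-CoA dehydrogenases and the trifunctional protein (Hadha, Hadhb) shorten them. In neurons these pathways serve membrane lipids, and glucose is the main fuel.

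Values are log2 ratios of forskolin over reference, so that a positive value is higher with forskolin. A gene was called where its Benjamini-Hochberg adjusted p in limma was under 0.05 over all genes tested. Of the 43379 non-control spots, 19889 to 21973 per array exceeded background clearly in forskolin RNA and 19504 to 23285 in reference RNA. The neuronal label held: 12 of 12 neuronal marker genes were well above background in both channels on all 12 arrays, against 0 of 5 adipocyte, 0 of 5 hepatocyte and 0 of 5 leukocyte markers and 1 of 6 glial markers (Sox10). Of the adipocyte and hepatocyte genes, 3 of 5 and 4 of 5 were above background on no array. The neuronal markers themselves moved: 4 of 12 were higher and 5 lower at 24 h (median 0.09), 9 were higher and 1 lower at 48 h (median 0.50), and 10 rose from 24 to 48 h with 0 falling. Their part in the late values of the lipid genes was not tested. From 4 to 24 h, 5 of the markers rose and 3 fell (median 0.02). Of all genes tested, 24.1% were higher and 29.2% lower at 24 h, and 26.9% and 30.3% at 48 h. From 4 to 24 h, 21% of all genes rose and 17.8% fell, and from 24 to 48 h 8% and 6.8%.

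Between 4 and 24 h of forskolin, most of the lipid genes rose. Of the 32 tested members, 20 were higher at 24 h than at 4 h, 3 were lower (Elovl4, Cpt1a and Fabp5) and 9 were not called. Of all genes tested, 21% were called higher in that step, 17.8% lower and 38.7% in either direction. The members' median difference was 0.31 on the log2 scale, against a median of 0.00437 over all genes. The reference and any dye effect of a gene cancel in this step.

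Before that step, few members were higher than the reference. At 2 h, 1 of the 32 was called higher (Cpt1a), 7 were called lower and 24 were not called, against 9.98% of all genes called higher, 18.3% lower and 28.3% in either direction. At 4 h, 3 were higher (Cpt1a, Acsl1 and Fads2), 13 were lower and 16 were not called, against 19.5%, 30.1% and 49.6% of all genes. With such shares among all genes, the early counts say little about the members. In the step between them, 1 member was higher at 4 h than at 2 h (Cpt1a), 4 were lower (Acaca, Scd2, Acsl6 and Cpt2) and 27 were not called, against 5.57%, 10.1% and 15.7% of all genes. With the slide as a block Fads2 was also called higher in that step (0.21, adjusted p = 0.017, limma).

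Later most members stood above the reference. At 24 h, 21 of 32 were higher, 3 were lower (Elovl2, Elovl4 and Fabp5) and 8 were not called, against 24.1%, 29.2% and 53.2% of all genes. At 48 h, 22 were higher, 4 were lower (the same 3 and Acsl5) and 6 were not called, against 26.9%, 30.3% and 57.2%. From 24 to 48 h the members divided: 7 rose further (Fasn, Acss2, Me1, Scd1, Scd2, Elovl6 and Acadvl), 4 fell back (Fads3, Acsl5, Acadl and Acox2) and 21 were not called. This stands against 8%, 6.8% and 14.8% of all genes. Acss2, in the 22 and in the 7, passed the filter on dim probes through its 48 h forskolin signal alone, so its calls there are no test. The median of the members was -0.03, -0.07, 0.21 and 0.31 at 2, 4, 24 and 48 h, and the median of all genes lay between -0.0339 and -0.0181 at these times.

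These directions against the reference depend on the intensity-dependent (loess) normalization within each array. With each array centred on its median instead, the median of all genes tested was -0.57, -0.58, -0.45 and -0.45 at 2, 4, 24 and 48 h. Relative to that median, 8 members were higher and 21 lower at 2 h, 9 higher and 22 lower at 4 h, 14 higher and 14 lower at 24 h, and 11 higher and 11 lower at 48 h. The step from 4 to 24 h still held 17 higher members under that centring, with 2 lower.

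**Figure D1:**
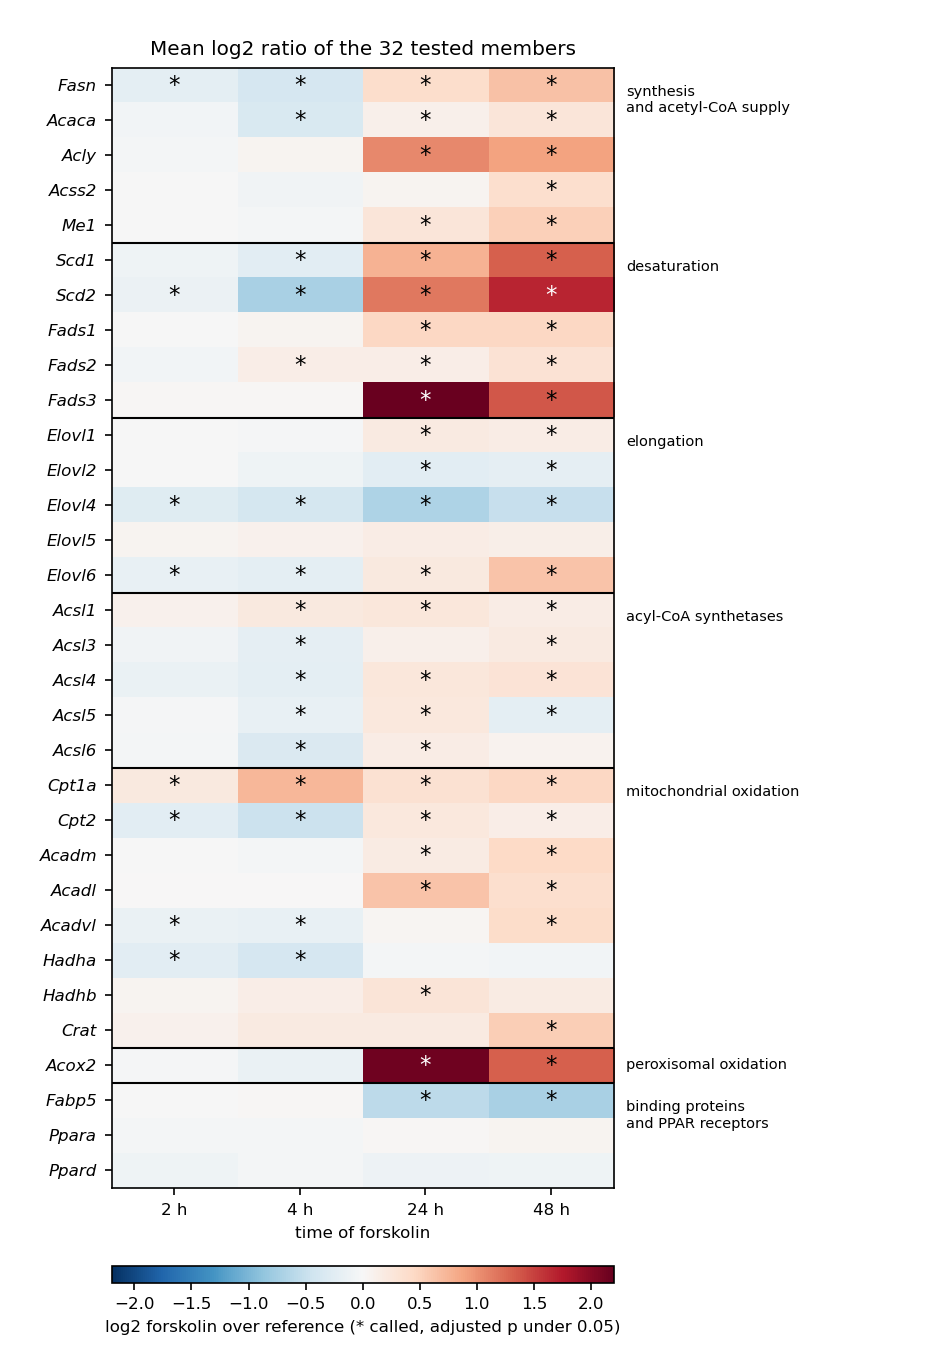
Mean log2 ratio of forskolin over reference (colour, red higher, blue lower) of the 32 tested members (rows, grouped by role) at 2, 4, 24 and 48 h of forskolin (columns), with an asterisk where a member was called in limma. The synthesis and desaturation genes at the top are red at 24 and 48 h, while Elovl4 and Fabp5 are blue.

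The genes of synthesis and acetyl-CoA supply rose late. Of the 5 tested, 0 were higher at 2 or 4 h, where 1 and 2 were lower. Fasn, Acaca, Acly and Me1 were higher at both late times, with 0 lower. Acss2 was in the tested set only because its forskolin signal at 48 h passed the filter on dim probes, so its call there is not counted with them, although the counts of members called at 48 h and from 24 to 48 h include it. The sixth, Acacb, the mitochondrial carboxylase that restrains oxidation, was above background in neither channel on any array. Among all genes, 9.98% were higher and 18.3% lower at 2 h, and 19.5% and 30.1% at 4 h. At 24 h the shares were 24.1% and 29.2%, and at 48 h 26.9% and 30.3%.

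Acly, which makes cytosolic acetyl-CoA from citrate, had log2 ratios of -0.02, -0.04 and -0.08 at 2 h, 0.10, 0.04 and 0.07 at 4 h, 1.03, 1.05 and 1.09 at 24 h, and 0.77, 0.94 and 0.97 at 48 h. Every late array lay above every early one. Its mean was 1.06 ± 0.03 at 24 h (SD, n = 3), a 2.08-fold higher level with forskolin than in the reference (adjusted p = 1.8e-10, limma), and the change from 24 to 48 h was not called (adjusted p = 0.08). Under median centring the 24 h value turned to -0.12 (adjusted p = 0.3), and was 0.33 relative to all genes.

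Fasn, the enzyme that assembles palmitate, moved in both directions. Its arrays read -0.25, -0.15 and -0.22 at 2 h, -0.31, -0.48 and -0.31 at 4 h, 0.37, 0.43 and 0.38 at 24 h, and 0.52, 0.74 and 0.68 at 48 h. All 6 early arrays were below 0 and all 6 late ones above it. The mean was -0.37 ± 0.095 at 4 h (adjusted p = 2.6e-05, limma) and 0.65 ± 0.11 at 48 h (SD, n = 3, 1.57-fold, adjusted p = 5.2e-08), and the step from 4 to 24 h was 0.76 (adjusted p = 9e-07). Under median centring the 48 h value was -0.53, or -0.07 relative to all genes, so its direction against the reference turned there.

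Me1, which yields NADPH from malate, stayed between -0.06 and 0.05 on all early arrays. It read 0.26, 0.27 and 0.27 at 24 h and 0.46, 0.55 and 0.55 at 48 h, with no overlap between the 3 levels. The 48 h mean of 0.52 ± 0.051 (SD, n = 3) was 1.44-fold above the reference (adjusted p = 2.7e-08, limma), and turned to -0.56 under median centring, or -0.10 relative to all genes. A dimmer Me1 probe gave a smaller 0.19 at 48 h.

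Acaca, the carboxylase that commits acetyl-CoA to synthesis, fell at 4 h (-0.33, adjusted p = 1.3e-05) and rose at 24 h (0.11) and 48 h (0.27, adjusted p = 5.4e-05). Its second probe, whose start is 1897 bases upstream, gave -0.11 at 4 h and -0.00196 at 48 h, neither called. Acss2, which makes acetyl-CoA from acetate, was dim. It read 0.53, 0.31 and 0.29 at 48 h, the only time at which its forskolin signal was well above background on 3 of 3 arrays (the reference on 1 of 3), and between -0.18 and 0.09 before. It passed the filter through that group alone, so these are values with no test.

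Among the biosynthetic members, the desaturases Fads3, Scd2 (by its brightest probe) and Scd1 reached the highest ratios. Fads1 and Fads2 stayed below Acly. All 5 tested desaturases were called higher at 24 h and at 48 h. Their median ratio was 0.77 at 24 h and 1.32 at 48 h, against -0.07 at 2 h and 0.03 at 4 h. The share of all genes called higher was 24.1% at 24 h and 26.9% at 48 h.

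Fads3, a desaturase known in other mammals to act on sphingoid bases, had the largest ratio of any member at 24 h. Its arrays read -0.13, 0.06 and 0.14 at 2 h, -0.02, 0.01 and 0.08 at 4 h, 2.10, 2.15 and 2.28 at 24 h, and 1.38, 1.36 and 1.35 at 48 h. The early arrays straddled 0, the 24 h arrays were the highest and the 48 h arrays lay between without overlap. The mean of 2.17 ± 0.095 at 24 h (SD, n = 3) was a 4.52-fold excess over the reference (adjusted p = 2e-12, limma), and the fall of 0.81 from 24 to 48 h was also called (adjusted p = 7e-06). Its 60-base probe lies at chr1:212663574-212664860 on the plus strand of build rn3, an interval of 1287 bases, so that it is split in the genome. The promoter window of RefSeq (build GRCr8, chr1:216110623-216110922, plus strand, 250 bases before the start to 50 after) is shown with CCAAT boxes, on either strand, in capitals.
Fads3 probe: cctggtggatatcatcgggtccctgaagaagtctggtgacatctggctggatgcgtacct
Fads3 promoter: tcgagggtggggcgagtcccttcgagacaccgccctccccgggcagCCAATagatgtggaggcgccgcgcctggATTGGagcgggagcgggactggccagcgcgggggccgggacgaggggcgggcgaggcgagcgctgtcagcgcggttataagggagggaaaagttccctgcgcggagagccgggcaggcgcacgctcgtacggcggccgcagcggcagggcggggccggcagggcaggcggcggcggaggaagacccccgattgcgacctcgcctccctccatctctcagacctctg

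Scd2 is the stearoyl-CoA desaturase most prominent in brain, and makes oleate and palmitoleate. Its brightest probe read -0.08, -0.17 and -0.14 at 2 h, -0.63, -0.84 and -0.68 at 4 h, 1.17, 1.12 and 1.21 at 24 h, and 1.65, 1.74 and 1.66 at 48 h. The 4 times did not overlap, with 4 h the lowest and 48 h the highest. The mean of 1.68 ± 0.047 at 48 h (SD, n = 3) was 3.21-fold above the reference (adjusted p = 2.9e-12, limma), after a mean of -0.72 ± 0.11 at 4 h (adjusted p = 2.7e-08). The other 2 probes showed the late rise at a smaller size, with 0.53 and 0.53 at 24 h and 0.81 and 0.79 at 48 h. Neither showed the fall at 4 h (-0.07 and -0.01), so the early fall was seen with 1 of 3 probes.

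The 3 Scd2 probes lie on the plus strand of chromosome 1 in build rn3, the brightest at chr1:249629674-249629733 and the others at chr1:249627998-249628057 and chr1:249624374-249624433. They are given from the upstream to the downstream one, with the RefSeq promoter window (GRCr8, chr1:253118127-253118426, plus strand) and its CCAAT boxes in capitals.
Scd2 upstream probe: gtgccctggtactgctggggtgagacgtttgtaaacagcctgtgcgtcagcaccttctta
Scd2 middle probe: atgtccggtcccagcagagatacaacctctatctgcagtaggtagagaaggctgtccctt
Scd2 brightest probe: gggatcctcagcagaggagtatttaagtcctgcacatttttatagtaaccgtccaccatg
Scd2 promoter: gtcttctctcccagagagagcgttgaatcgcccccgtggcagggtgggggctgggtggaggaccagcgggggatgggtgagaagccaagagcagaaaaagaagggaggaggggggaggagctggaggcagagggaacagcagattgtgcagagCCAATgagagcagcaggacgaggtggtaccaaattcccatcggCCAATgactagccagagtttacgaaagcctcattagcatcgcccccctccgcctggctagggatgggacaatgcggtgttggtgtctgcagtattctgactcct

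Scd1, the isoform of liver and fat, had 1 probe (rn3, chr1:249717902-249717961, minus strand) and a like order of times. It read -0.12, -0.06 and -0.13 at 2 h, -0.10, -0.39 and -0.22 at 4 h, 0.79, 0.79 and 0.73 at 24 h, and 1.49, 1.36 and 1.11 at 48 h. The 2 and 4 h arrays overlapped each other, and the late ones lay far above both. The mean of 1.32 ± 0.19 at 48 h (SD, n = 3) was a 2.49-fold excess (adjusted p = 6.5e-10, limma).
Scd1 probe: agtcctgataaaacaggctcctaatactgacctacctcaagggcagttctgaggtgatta

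Fads1 and Fads2, the delta-5 and delta-6 desaturases of polyunsaturated fatty acid synthesis, rose less. Fads1 averaged 0.45 at 24 h and 0.46 at 48 h (adjusted p = 3e-05 and 2.3e-05). Fads2 averaged 0.15 at 4 h, 0.15 at 24 h and 0.32 at 48 h (adjusted p = 0.035, 0.027 and 0.00016). Fads1, Fads2 and Fads3 lie in 1 stretch of rat chromosome 1, and their 24 h ratios of 0.45, 0.15 and 2.17 differed widely.

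**Figure D2:**
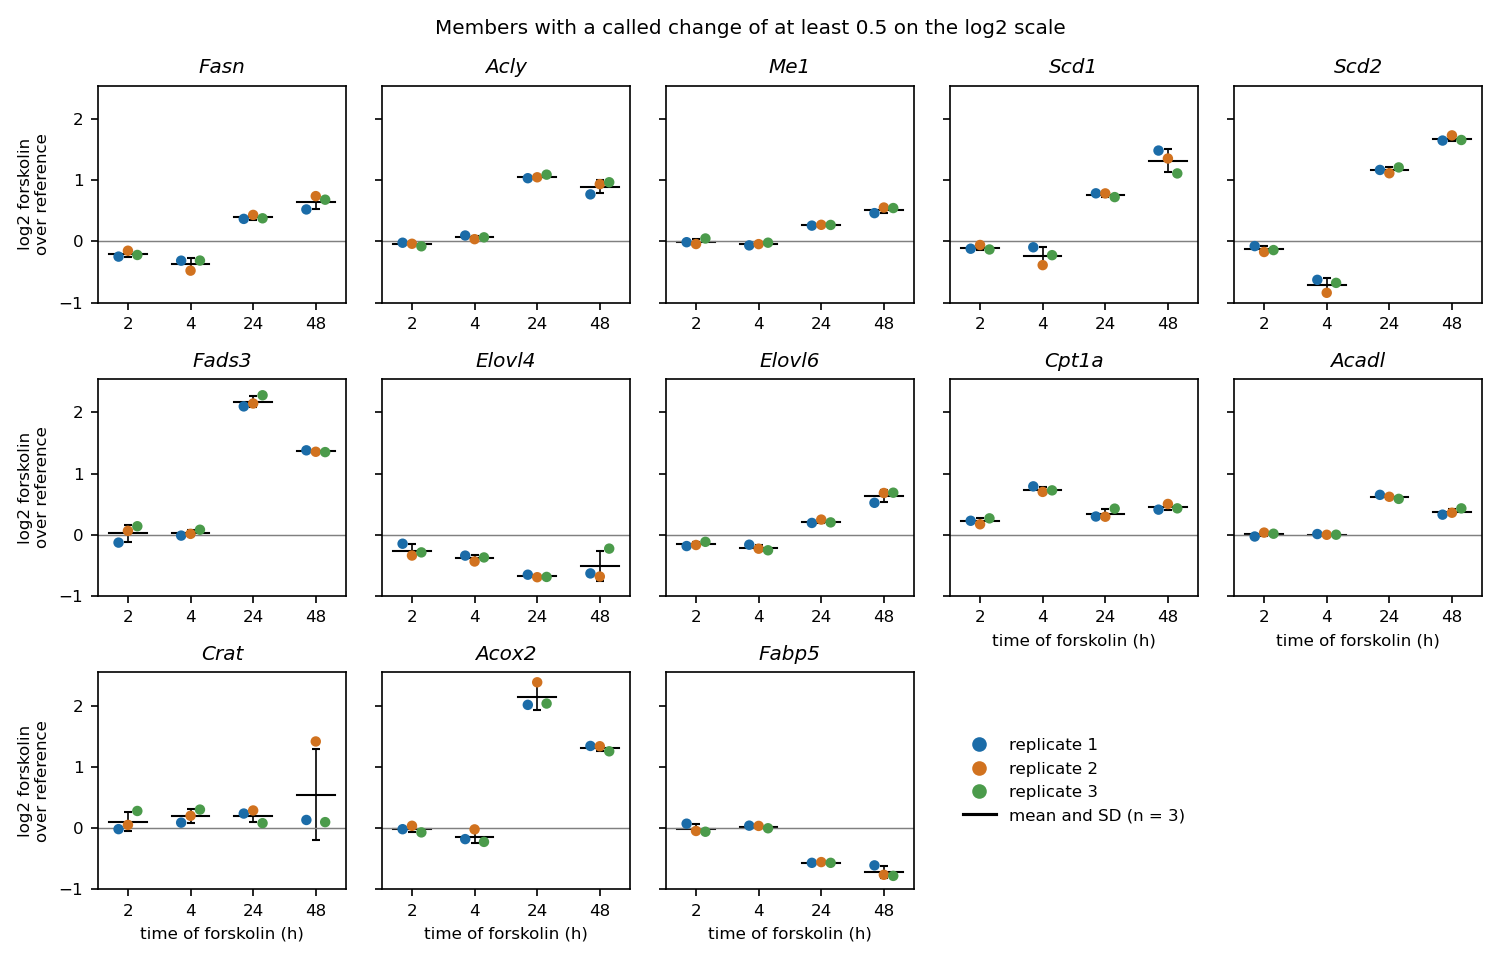
Log2 ratio of forskolin over reference on each array (points, coloured by replicate) against time of forskolin in h, for the 13 members called with a mean of at least 0.5 in size at 1 or more times; bars are mean and SD (n = 3). Fads3 and Acox2 are highest at 24 h, Scd1 and Scd2 at 48 h and Cpt1a at 4 h, and 1 of the 3 arrays of Crat at 48 h stands apart at 1.41.

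The tested elongases went in both directions. Of 5 tested, 2 were higher and 2 lower at 24 h, with the same split at 48 h. Of all genes, 24.1% were higher and 29.2% lower at 24 h, and 26.9% and 30.3% at 48 h. With 5 genes, such counts say little about the elongases as a group. Elovl6, which extends palmitate to stearate, read 0.19, 0.25 and 0.20 at 24 h and 0.52, 0.68 and 0.69 at 48 h, above all its 2 and 4 h arrays, which lay between -0.26 and -0.12. Its 48 h mean was 0.63 ± 0.094 (SD, n = 3, 1.55-fold, adjusted p = 1.5e-08, limma), and -0.44 under median centring, or 0.02 relative to all genes. Its other probe was not called at 2, 4 or 24 h, and read 0.45 at 48 h.

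Elovl4, which makes very long chains and is prominent in retina, skin and brain, fell. It read -0.15, -0.34 and -0.29 at 2 h, -0.34, -0.44 and -0.37 at 4 h, -0.65, -0.70 and -0.69 at 24 h, and -0.63, -0.68 and -0.23 at 48 h. All 12 arrays were below 0, and 1 of the 48 h arrays lay with the early ones. The 24 h mean was -0.68 ± 0.022 (SD, n = 3, 1.6-fold lower with forskolin, adjusted p = 1.8e-06, limma).

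Elovl1, of saturated very long chains, rose slightly (0.19 and 0.17 at 24 and 48 h). Elovl2, of polyunsaturated chains, fell slightly (-0.23 and -0.19). Elovl5 was called at no time, and its reference signal was not well above background on any array of 2, 4 or 48 h.

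Of 5 acyl-CoA synthetases tested, 4 were lower and 1 was higher (Acsl1) at 4 h by their brightest probes, beside 30.1% and 19.5% of all genes. At 24 h 4 were higher and 0 lower (24.1% and 29.2% of all genes), with Acsl3 not called (adjusted p = 0.10). At 48 h 3 were higher and 1 was lower (26.9% and 30.3% of all genes). The brightest probe of Acsl1, an isoform of liver, fat and heart, read 0.21 at 4 h (adjusted p = 0.001), and its other 3 probes read 0.40 to 0.68 there. Acsl3, an isoform of lipid droplets, averaged -0.20 at 4 h and 0.20 at 48 h. Acsl6, the isoform enriched in brain, averaged -0.33 at 4 h (adjusted p = 4e-04) and 0.16 at 24 h. Acsl5 changed sign between the late times, with 0.17, 0.22 and 0.30 at 24 h against -0.20, -0.20 and -0.25 at 48 h, and its step of -0.45 was called (adjusted p = 0.00039).

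Acsl4, which prefers arachidonate, had probes that opposed each other at 4 h. The brightest (rn3, chrX:36285116-36285175, plus strand) gave -0.22 at 4 h, and the other, 2234 bases upstream (chrX:36282882-36282941), gave 0.38, each called. At 24 and 48 h both were called higher, at 0.24 and 0.31 for the brightest and 0.46 and 0.42 for the other. The upstream probe is given first.
Acsl4 upstream probe: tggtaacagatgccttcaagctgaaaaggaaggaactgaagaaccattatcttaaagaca
Acsl4 brightest probe: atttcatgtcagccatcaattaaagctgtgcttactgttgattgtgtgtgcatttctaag

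Most of the tested oxidation members were higher late. Of the 9 tested (8 mitochondrial and 1 peroxisomal), 1 was higher and 3 lower at 2 h and again at 4 h, 6 were higher at 24 h and 7 at 48 h, with 0 lower at either late time. The 7 at 48 h include Crat, whose call rests on 1 array. The median ratio of the 9 was 0.23 at 24 h and 0.40 at 48 h, against 0.42 and 0.59 for the 10 tested genes of synthesis and desaturation. Of all genes, 9.98% were higher and 18.3% lower at 2 h, and 19.5% and 30.1% at 4 h. The late shares were 24.1% and 29.2% at 24 h, and 26.9% and 30.3% at 48 h. Another 23 tested oxidation genes, outside the members, split into 7 higher and 7 lower at 24 h (median -0.01).

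Cpt1a, the carnitine palmitoyltransferase that sets the pace of mitochondrial fatty acid uptake, was the early riser. Its probe, printed on 10 spots of each array, read 0.23, 0.17 and 0.27 at 2 h, 0.79, 0.70 and 0.72 at 4 h, 0.30, 0.29 and 0.43 at 24 h, and 0.41, 0.50 and 0.43 at 48 h. All 12 arrays were above 0, and the 4 h arrays stood above the rest. The mean of 0.74 ± 0.047 at 4 h (SD, n = 3) was 1.67-fold above the reference (adjusted p = 8.7e-09, limma). The rise of 0.52 from 2 to 4 h and the fall of 0.40 from 4 to 24 h were each called (adjusted p = 4.1e-05 and 8.6e-05). Under median centring the 4 h value was -0.06 against a median of -0.58 over all genes. The probe lies at chr1:206065519-206065578 of rn3, plus strand.
Cpt1a probe: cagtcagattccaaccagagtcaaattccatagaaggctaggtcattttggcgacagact

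Cpt2, its partner on the inner mitochondrial membrane, ran the other way early, with -0.19, -0.21 and -0.28 at 2 h and -0.48, -0.54 and -0.42 at 4 h. It read 0.26, 0.21 and 0.21 at 24 h and 0.22, 0.13 and 0.09 at 48 h, so that all early arrays were below 0 and all late ones above it. The 4 h mean of -0.48 and the 24 h mean of 0.23 were each called (adjusted p = 4.3e-07 and 0.00031, limma). At 4 h every Cpt1a array thus lay above the reference and every Cpt2 array below it; their difference was not tested.

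Among the acyl-CoA dehydrogenases, Acadl, which takes long chains, stayed between -0.03 and 0.03 on all 6 early arrays and read 0.65, 0.62 and 0.59 at 24 h and 0.33, 0.36 and 0.43 at 48 h. The 24 h mean of 0.62 ± 0.033 (SD, n = 3) was a 1.54-fold excess (adjusted p = 7.6e-09, limma), and turned to -0.51 under median centring, or -0.06 relative to all genes. Acadm, of medium chains, averaged 0.18 at 24 h and 0.44 at 48 h (adjusted p = 0.02 and 2.6e-05). Acadvl, of very long chains, averaged -0.16 at 4 h and 0.40 at 48 h by its brightest probe, while its other probe, 1023 bases upstream, was called higher at all 4 times (0.14, 0.32, 0.45 and 0.67). The early directions of Acadvl therefore opposed each other between probes, and the 48 h rise was common to both. The upstream probe (rn3, chr10:56870993-56871052) is given before the brightest (chr10:56869970-56870029), both on the minus strand.
Acadvl upstream probe: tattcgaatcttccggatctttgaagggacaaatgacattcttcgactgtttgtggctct
Acadvl brightest probe: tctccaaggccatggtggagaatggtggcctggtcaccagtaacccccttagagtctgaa

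Hadha and Hadhb encode the subunits of the mitochondrial trifunctional protein. Hadha read -0.18, -0.24 and -0.26 at 2 h and -0.36, -0.35 and -0.39 at 4 h, then lay between -0.14 and 0.003 on the late arrays. Its 4 h fall was called (mean -0.37, adjusted p = 4.3e-06, limma) and its late values were not. Hadhb averaged 0.14 at 4 h, which was not called (adjusted p = 0.26), and 0.29 at 24 h, which was (adjusted p = 0.023), and its 48 h arrays of 0.60, 0.10 and -0.14 spread widely. The 2 genes are read outward from neighbouring starts, and their RefSeq promoter windows share 200 bases, which are given on the plus strand (GRCr8, chr6:31907551-31907750) and hold 0 CCAAT boxes.
Hadha and Hadhb shared stretch: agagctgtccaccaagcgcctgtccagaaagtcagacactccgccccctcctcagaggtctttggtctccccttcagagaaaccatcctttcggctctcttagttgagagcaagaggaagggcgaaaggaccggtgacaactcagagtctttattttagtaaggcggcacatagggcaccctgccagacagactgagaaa

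Crat, carnitine acetyltransferase, was called at 48 h on 1 array. It read 0.13, 1.41 and 0.09, a mean of 0.55 ± 0.75 (SD, n = 3, adjusted p = 0.018, limma). Without that array the 48 h mean was 0.11 (adjusted p = 0.24), and with only the 48 h arrays in the fit the adjusted p was 0.11.

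Acox2, the peroxisomal oxidase of branched chains and bile acid precursors, had a course close to that of Fads3. It read -0.02, 0.03 and -0.07 at 2 h, -0.18, -0.02 and -0.23 at 4 h, 2.01, 2.38 and 2.03 at 24 h, and 1.34, 1.34 and 1.25 at 48 h. The 24 h arrays were highest and the 48 h arrays next, with no overlap. The mean of 2.14 ± 0.21 at 24 h (SD, n = 3) was 4.42-fold above the reference (adjusted p = 1.5e-11, limma), and the fall of 0.83 to 48 h was called (adjusted p = 3.2e-05). The forskolin signal was well above background on 1 of 3 arrays at 2 h and at 4 h and on 3 of 3 at 24 and 48 h, so the early ratios are of a dim spot. The probe is at chr15:18673090-18673149 of rn3, plus strand, and the RefSeq promoter window at chr15:19090705-19091004 of GRCr8, plus strand, with CCAAT boxes on either strand in capitals.
Acox2 probe: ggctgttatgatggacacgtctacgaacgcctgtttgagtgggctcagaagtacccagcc
Acox2 promoter: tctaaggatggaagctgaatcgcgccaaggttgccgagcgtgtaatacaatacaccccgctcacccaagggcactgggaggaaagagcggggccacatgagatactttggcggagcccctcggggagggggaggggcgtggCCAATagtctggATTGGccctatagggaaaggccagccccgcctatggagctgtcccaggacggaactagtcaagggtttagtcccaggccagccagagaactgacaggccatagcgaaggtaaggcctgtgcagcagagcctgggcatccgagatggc

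The other peroxisomal enzymes, Acox3 and Ehhadh, were above background in neither channel on any array. Decr1, the mitochondrial dienoyl-CoA reductase, was above background in the forskolin channel on 0 of 12 arrays and in the reference on 2 of 12. Peroxisomal oxidation was therefore measured through 1 gene.

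Set side by side, the median over synthesis and desaturation exceeded the median over oxidation on all 6 late arrays. The differences were 0.09, 0.21 and 0.25 at 24 h and 0.19, 0.26 and 0.28 at 48 h, with means of 0.18 ± 0.086 and 0.24 ± 0.051 (SD, n = 3). At 2 and 4 h they were -0.04 ± 0.036 and -0.01 ± 0.12, and 5 of those 6 arrays were below 0. The members were picked by name with results known, so these differences are a description with no test. The medians of synthesis and desaturation include Acss2, which passed the filter through its 48 h forskolin signal alone. Under median centring, relative to all genes, the 48 h medians were 0.35 for synthesis and desaturation and 0.05 for oxidation.

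**Figure D3:**
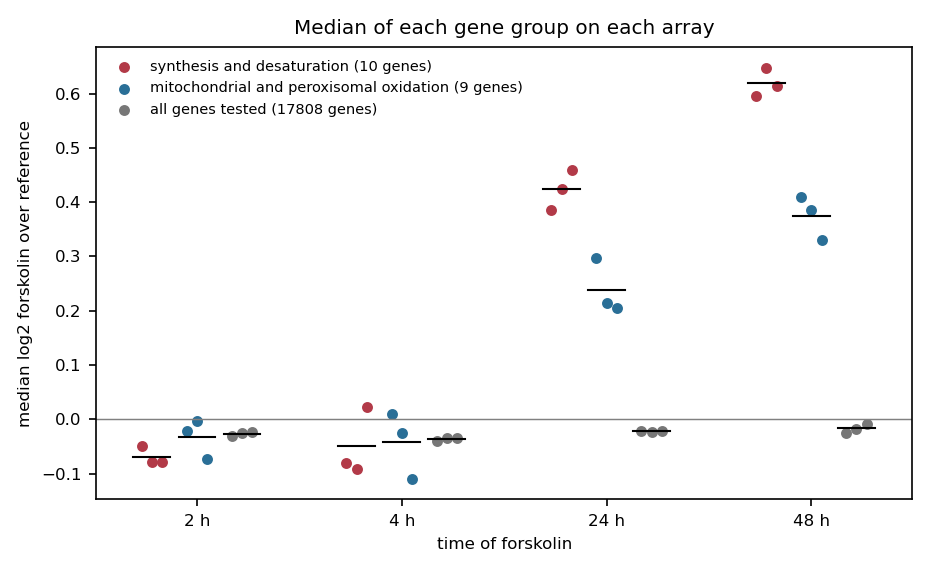
Median log2 ratio of forskolin over reference on each array (points) and mean of the 3 arrays (line) at 2, 4, 24 and 48 h of forskolin, for 10 genes of synthesis and desaturation, 9 of oxidation and all 17808 genes tested. Both lipid groups leave the level of all genes at 24 h, and synthesis and desaturation stands higher than oxidation on every late array.

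Of the carriers and receptors, Fabp5, a fatty acid binding protein of skin and developing neurons, fell. It read 0.07, -0.05 and -0.06 at 2 h, 0.04, 0.03 and -0.01 at 4 h, -0.57, -0.56 and -0.57 at 24 h, and -0.61, -0.77 and -0.79 at 48 h. The late arrays lay below all early ones. The 48 h mean of -0.72 ± 0.095 (SD, n = 3) was 1.65-fold lower with forskolin (adjusted p = 4.8e-09, limma). Fabp3, the heart form, was well above background on 4 of 12 arrays in each channel and was not tested. The receptors Ppara and Ppard, which switch on oxidation genes in liver and muscle, were dim and called at no time, with means between -0.10 and 0.06.

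Where a member had several probes, the probes often gave different calls. Of the 10 members with more than 1 kept probe (23 probes), calls differed between probes for 6, 5, 4 and 3 members at 2, 4, 24 and 48 h. They were in opposite directions for Acadvl at 2 h, for Acadvl and Acsl4 at 4 h, and for 0 members at 24 and 48 h. In all 10 members the brightest probe was the one nearest the 3' end by its coordinates in rn3.

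**Figure D4:**
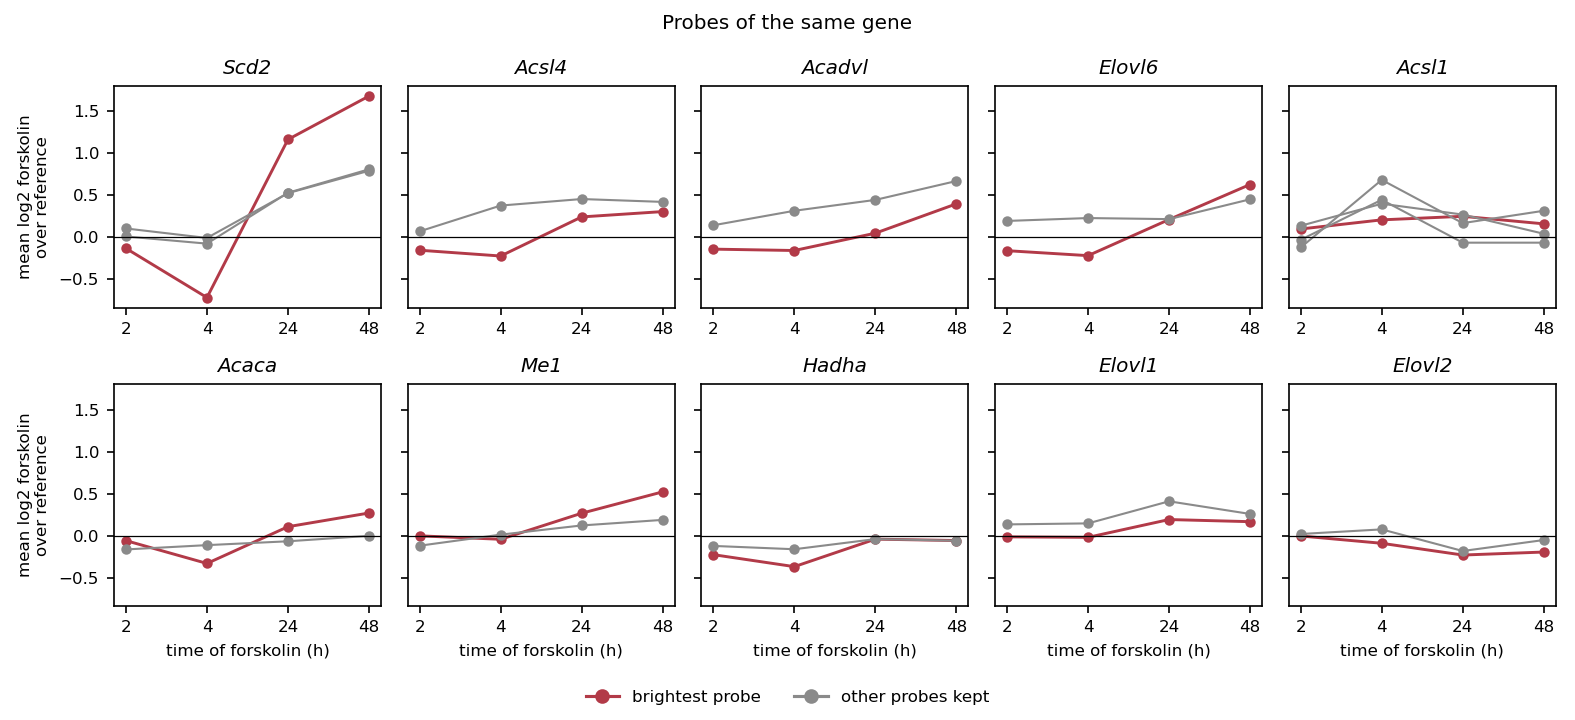
Mean log2 ratio of forskolin over reference at 2, 4, 24 and 48 h for each kept probe of the 10 members with more than 1, with the brightest probe in red and the others in grey. The probes of Scd2, Acsl4, Acadvl and Elovl6 part at 4 h and lie on the same side of 0 at 48 h.

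Short sequence motifs were counted in the RefSeq promoter windows that start 250 bases before a gene and end 50 bases into it. A window was matched for 29 of the 37 members, among 33469 windows in all. The letters searched, on both strands, were CCAAT, the cAMP element TGACGTCA, its part TGACG, the sterol element TCACNCCAC, the E box CACGTG and the direct repeat DR1, AGGTCANAGGTCA. The CCAAT box was in 13 of the 29 windows (44.8%) and in 37.5% of all windows. TGACGTCA was in 3 (10.3%), those of Acadm, Elovl5 and Acox3, against 1.83% of all, and TGACG, which these contain, was in 8 (27.6%) against 21.2%. TCACNCCAC was in 1 (Ehhadh, 3.45%) against 1.12%, and CACGTG in 1 (Elovl5, 3.45%) against 6.42%. DR1 was in 0 of the 29 and in 0.0538% of all. Both Fads3 and Acox2 held CCAAT once on each strand, and Scd2 held it at 2 places. Elovl5, which was called at no time, also held it at 2 places. Elovl4, which fell, held it as well, while the window of Scd1, which rose, did not. Whether CCAAT bears on these values was not tested. Of the 3 members with TGACGTCA, Acadm and Elovl5 were not called at 2 or 4 h and Acox3 was not tested. The reference signal of Elovl5 was not well above background on any array of 2 or 4 h, so its lack of a call there says little.

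Other lipid genes were counted in the same way. Beside their counts stand 9.98% of all genes higher and 18.3% lower at 2 h, and 19.5% and 30.1% at 4 h. The late shares of all genes were 24.1% and 29.2% at 24 h, and 26.9% and 30.3% at 48 h. Of 14 tested genes of sterol synthesis, 1 was higher and 4 lower at 2 h, and 7 higher and 1 lower at 4 h. At both late times 13 were higher and 0 lower. The 3 with the largest size at 24 h were Msmo1, a sterol oxidase (1.82), Hmgcs1, which makes HMG-CoA (1.67), and Fdps, which makes farnesyl diphosphate (1.51), with adjusted p of 1.1e-12, 2.8e-11 and 4.3e-10 in limma. The median ratio of that list at 4 h was 0.13, against -0.06 for synthesis and desaturation of fatty acids.

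Of 16 tested other genes of fatty acid synthesis and elongation, 10 were higher and 2 lower at 24 h and again at 48 h. Aacs, which activates acetoacetate for lipid synthesis, Mlycd, which breaks down malonyl-CoA, and Slc25a1, the mitochondrial citrate carrier, averaged 1.06, 0.70 and 0.55 at 24 h (adjusted p = 2.2e-08, 1.5e-06 and 7.4e-06). Of 14 regulators of lipid synthesis, 7 were higher and 1 lower at each late time. Pparg, a nuclear receptor of fat cells, Insig1, which holds back SREBP processing, and Nr1h3, the receptor LXR alpha, averaged 1.54, 1.45 and 0.69 at 24 h (adjusted p = 8.3e-09, 6.8e-12 and 4.5e-09). Of the 5 adipocyte markers, Adipoq, Plin1 and Fabp4 were above background on no array. Lep was above it on 4 of 12 arrays in each channel, and Cfd on 4 in forskolin and 1 in the reference. Cfd, though dim, was tested and averaged 0.07 at 24 h and 0.20 at 48 h, where it was called higher. With so few arrays above background, Cfd can have passed the filter on dim probes through no more than 1 time. Its call is therefore not counted as a test.

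Among those regulators, Srebf1 and Ppargc1b are named after their values were seen. Srebf1, the SREBP gene that activates fatty acid synthesis and desaturation, averaged -0.38 and -0.85 at the early times and 0.40 and 1.01 at the late ones, each called (adjusted p = 0.00014, 1.4e-08, 1.1e-05 and 8.3e-10, limma). That order of times was also that of the brightest Scd2 probe and of Fasn, Scd1, Acaca, Me1 and the dim Acss2. The early fall of Scd2 was not called with its other probes. Acly, Fads1, Fads2 and Fads3 had other orders, with means of 0.07, 0.06, 0.15 and 0.03 at 4 h. Ppargc1b, a coactivator of oxidation genes, was highest at 4 h (1.05, adjusted p = 1.1e-08), the time at which Cpt1a was highest. Of the 9 oxidation members tested, Cpt1a was the 1 called higher at 4 h. The 3 called lower were Cpt2, Hadha and, by its brightest probe, Acadvl. Whether Srebf1 or Ppargc1b acts on these genes was not tested.

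Of 23 tested other genes of oxidation, 7 were higher and 7 lower at 24 h, and 9 were higher and 5 lower at 48 h. Their median was -0.01 at 24 h and 0.07 at 48 h, near the median of all genes. Cpt1c, the neuronal carnitine palmitoyltransferase isoform, and Hsd17b10, a mitochondrial dehydrogenase, averaged 0.73 and 0.52 at 24 h, and Etfdh, which passes electrons from acyl-CoA dehydrogenases to ubiquinone, averaged -0.45 (adjusted p = 2.7e-09, 2.3e-07 and 7.5e-07). Of 14 tested genes of glycerolipid synthesis, storage and lipolysis, 9 were higher and 3 lower at 24 h, and 8 and 4 at 48 h. The 3 with the largest size at 24 h were Plin3, a lipid droplet coat protein (0.75), Agpat2, an acyltransferase of phosphatidate synthesis (0.72), and Slc27a1, a fatty acid transporter (0.65), with adjusted p of 1.8e-08, 4.4e-08 and 6.2e-08.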

How the data were processed

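Each array compared Cy3-labelled forskolin RNA with Cy5-labelled reference RNA. The deposited scanner files, which Feature Extraction (version 9.5.1.1 in the file headers) wrote, give the intensity of 45018 spots and of their local background. The authors' deposited log2 values ran as red over green (correlation of -0.995 to -0.998 with the ratios used here), with column medians of 0.007 to 0.012, and their normalization was not stated. The submitters' processing notes name limma. Intensities were corrected with normexp (offset 50) and loess in limma 3.58.1 (R 4.3.3, and data.table in its version 1.17.8). Outlier spots were left out, spots of a probe averaged, and a probe kept if every array of some time (3 arrays) had it clearly over background in either channel (20653 of 41012 probes). The brightest probe stood for a gene. A linear model with 4 time means (lmFit, eBayes, 8 residual degrees of freedom) gave p-values with Benjamini-Hochberg adjustment. The reference counts as 1 control sample, so its own spread is left out. Dyes were not swapped, so a dye effect stays in ratios against the reference. The labels do not say that replicates were separate cultures, so the spread behind the p-values may be technical. Coordinates of probes are rn3, per the file headers; names came from RefSeq (GRCr8). Members are described by array where called with a mean of at least 0.5 in size; of other lists the 3 called genes of largest size at 24 h are named. Members and lists were chosen with earlier results of these data known.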

Additional observations from a re-analysis of the deposited data

Results flagged for a closer look

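Among the tested members, 9 were called in opposite directions against the reference at successive times with the step between them called as well (limma, Benjamini-Hochberg over all genes). From 4 to 24 h the step was 1.88 for Scd2, 1.00 for Scd1, 0.76 for Fasn, 0.71 for Cpt2, 0.48 for Acsl6, 0.46 for Acsl4, 0.44 for Acaca, 0.43 for Elovl6 and 0.40 for Acsl5. Acsl5 turned again, by -0.45 from 24 to 48 h. The early fall was not called with the other probes of Scd2 and Elovl6 or, at 4 h, of Acaca, and was a rise with the other probe of Acsl4. Groups of 3 arrays were not searched for outlying samples.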

How the results depend on the processing

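With no background correction, a normexp offset of 0, Agilent processed signals, both filters on dim probes, the mean of a gene's probes and the deposited log2 values, all 13 members described by array kept direction and call where they were tested; 2 of them were not tested under the stricter filter. The exceptions came from median centring, from leaving out 1 array (Crat) and from fitting only the arrays compared (Crat). The number of members higher at 24 h than at 4 h was 17 to 20 under every setting tried.

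Under median centring, 0 members were higher and 26 lower at 2 h, 0 and 25 at 4 h, 2 and 20 at 24 h, and 6 and 22 at 48 h. Relative to the median of all genes these were 8 and 21, 9 and 22, 14 and 14, and 11 and 11. From 2 to 4 h it left 0 higher and 0 lower (1 lower in relative terms). From 4 to 24 h it left 1 lower, and from 24 to 48 h 1 higher and 2 lower (4 higher in relative terms). Fasn at 48 h became -0.53 (relative -0.066), Acly at 24 h -0.12, Me1 at 48 h -0.56 (relative -0.10), Elovl6 at 48 h -0.44, Cpt1a at 4 h -0.056 and Acadl at 24 h -0.51 (relative -0.058). The medians of synthesis and desaturation became -1.10, -1.11, -0.14 and -0.11 at 2, 4, 24 and 48 h, and -0.52, -0.53, 0.30 and 0.35 relative to all genes. Those of oxidation became -0.79, -1.02, -0.30 and -0.41, and -0.22, -0.44, 0.15 and 0.052. The number of all genes called was 13749 at 2 h and 13900 at 4 h, against 5042 and 8833 with loess, and 354, 3349 and 274 in the steps from 2 to 4, 4 to 24 and 24 to 48 h, against 2790, 6898 and 2636. Relative to the median it was 14805, 14911 and 14307 at 2, 4 and 24 h (9482 at 24 h with loess), and 1255 and 1297 in the first and last steps. The cause was not tested.

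Other settings moved fewer values. Without a filter 2 members were higher at 2 h, and the 48 h medians were 0.52 for synthesis and desaturation and 0.28 for oxidation. With the mean of a gene's probes 4 were lower at 2 h, 2 higher from 2 to 4 h and 5 lower from 4 to 24 h, and the 48 h median of synthesis and desaturation was 0.55. With only the arrays compared 5 were higher at 4 h. With processed signals the median of synthesis and desaturation was -0.13, 0.55 and 0.92 at 4, 24 and 48 h, and that of oxidation 0.48 at 24 h. With offset 0 these were 0.79 at 48 h and 0.45 at 24 h. The stricter filter gave 0.65 for synthesis and desaturation at 48 h, and the deposited values 0.28 for oxidation at 24 h.

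Leaving out 1 array at a time, members higher at 2 h numbered 1 to 2, members lower at 2 h 4 to 7 (4 without replicate 2 or without replicate 3 of 2 h), and members higher from 2 to 4 h 1 to 2. The median of synthesis and desaturation at 48 h was 0.55 to 0.63 and that of oxidation at 4 h -0.11 to -0.014. Without replicate 2 or 3 of 2 h, 3170 or 2807 of all genes were called at 2 h, and without replicate 3 of 4 h 1859 were called from 2 to 4 h. Each slide held 1 replicate number. The 18 pairs of arrays on a slide correlated at 0.05 to 0.47 (median 0.22) in their deviations from the time means. The 36 others correlated at -0.40 to 0.30 (median -0.21). Deviations from a mean of 3 arrays sum to 0, so positive values on a slide bring negative ones elsewhere. Pairs on slide 1 ran from 0.32 to 0.47. Pairs within slide 2 or slide 3 (0.05 to 0.31) were no higher than pairs between those slides (0.01 to 0.30). Arrays of slide 1 thus deviated together, and slides 2 and 3 were not told apart. With the slide as a replicate block, 2 members were higher from 2 to 4 h, against 1 without it, and the other 13 counts of members stayed within 1.5 times. The block added 7 calls (Acsl4 lower at 2 h, Acox2 lower at 4 h, Elovl5 and Acsl3 higher at 24 h, Hadhb higher at 48 h, Fads2 from 2 to 4 h and Acadm from 24 to 48 h) and ended 0. Elovl5 passed the filter on dim probes through its 24 h arrays alone, so its added call is no test. Dim probes (median signals of 64.6 to 71.5 in forskolin RNA over a background of 47 to 52) compress ratios towards 0, and 12 arrays limit the precision.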
